A study of Mus musculus with 8 samples.

Results

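miR-210 is a microRNA (miRNA) encoded by a single hairpin gene, Mir210, and the deposited table held both of its mature products, mmu-miR-210-5p and mmu-miR-210-3p. These 2 arms, of 1966 mature miRNAs listed, were examined in mouse articular chondrocytes in primary culture, the cells that build and maintain joint cartilage. Cells isolated from femoral heads of young wild-type mice were cultured in high-glucose medium with serum and given either vehicle (n = 4 libraries) or IL-1β at 1 ng/ml (n = 4 libraries) for 24 h. IL-1β (interleukin-1β) is a proinflammatory cytokine that activates NF-κB. The arms were chosen by name and picked from earlier results of the same contrast, in which the 5p arm rose with IL-1β and the 3p arm did not pass the test. The levels, the fold changes and the arm ratio between the groups are therefore given as a description, with no p-value. The labels gave neither the animals behind each culture nor any pooling of them.

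A miRNA hairpin is cut by Drosha and Dicer to a short duplex, and either strand may be loaded into an Argonaute protein, where bases 2 to 8 (the seed) guide it to target mRNAs. miR-210 is best known as the miRNA raised by hypoxia, through the hypoxia-inducible factor HIF-1α. The 3p arm is the one usually meant by the name miR-210, and its known targets include Iscu, a scaffold for iron-sulfur clusters in mitochondria, and Efna3, a membrane-bound ephrin ligand. Articular cartilage has no blood vessels, and its cells live at low oxygen in the joint. The cells here were isolated and cultured, and the study's methods do not state the oxygen level of the cultures.

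The sequences are shown because the results turn on the difference between the arms. The mature arms, from RefSeq (GRCm38.p6, the build called mm10 in the labels), are written 5′ to 3′ with the seed in capitals.
mmu-miR-210-5p: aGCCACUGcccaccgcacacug
mmu-miR-210-3p: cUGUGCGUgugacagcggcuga
The precursor of 110 nt lay at chr7:141221384-141221493 on the minus strand, and the mature arms are in capitals.
Mir210: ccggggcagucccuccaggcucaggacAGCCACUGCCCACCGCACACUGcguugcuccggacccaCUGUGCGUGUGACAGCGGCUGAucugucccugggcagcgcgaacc

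Both arms were 22 nt long, as the table also listed, and each had 1 locus. The 5p arm lay at chr7:141221445-141221466 and the 3p arm at chr7:141221407-141221428. No gene other than Mir210 overlapped the hairpin in GENCODE M21. The nearest was Rassf7, 2725 bp away, followed by Phrf1 at 7290 bp. Among 1678 mature mouse miRNA names with a RefSeq sequence, no other shared the seed of either arm, and the nearest sequence differed by 7 edits from each (miR-7658-3p for the 5p arm and miR-698-5p for the 3p arm). The GC content was 68.2% for the 5p arm and 63.6% for the 3p arm. In the structure predicted by RNAfold, the hairpin had 35 base pairs and a minimum free energy of -48.0 kcal/mol, with 16 pairs between the arms. All 4 of the first 4 bases of the 5p arm were paired, 3 of them as G-C pairs. Of the first 4 bases of the 3p arm, 3 were paired and 1 of these was a G-C pair. As background, the strand with the less stably paired 5′ end is loaded more readily in general.

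The libraries held 633625 to 1568367 counts with vehicle and 616475 to 1145577 with IL-1β. These ranges overlapped, but the deepest libraries were in the vehicle group. IL-1β replicate 4 stood apart: its log2 levels deviated from the other libraries of its group with an SD of 0.40 over 195 miRNAs, against 0.15 to 0.23 in the other 7 libraries. The changes of both miR-210 arms, of their ratio and of the hypoxia-linked miRNAs named are therefore also given without it. The chondrocyte markers miR-140 and miR-455 (both arms of each, 4 of 4 detected) took 15.6% to 16.8% of counts with vehicle. With IL-1β they took 12.4% to 15.3%, and these ranges did not overlap. Most of this share was miR-140-3p, which was lowest in IL-1β replicate 4 (129220 normalized CPM, against 137721 to 151738 in the other IL-1β libraries). None of the 4 markers passed the test between the groups. Of 6 haematopoietic markers, 4 (miR-142a-3p, miR-223-3p, miR-451a and miR-144-3p) were at 0 in all 8 libraries, and the 6 together took 0.00441% to 0.00638% of counts with vehicle and 0.00260% to 0.00471% with IL-1β. All 3 muscle markers and the liver marker miR-122-5p were at 0, 1 of 2 endothelial markers was at 0, and the 7 epithelial markers (2 at 0) took at most 0.00115%. The part of these differences in the results on miR-210 was not tested. In bulk samples, fewer cells of a type and less RNA per cell cannot be told apart.

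The 5p arm of miR-210 was more abundant in every IL-1β library than in any vehicle library, whereas the 3p arm was at similar levels in both groups. The deposited counts of miR-210-5p were 1113, 1534, 1830 and 775 in vehicle replicates 1 to 4, and 1178, 2475, 1189 and 1500 in IL-1β replicates 1 to 4. Scaled to library size as normalized CPM (counts per 1000000 counts), these were 1181, 1024, 1142 and 1208 with vehicle. With IL-1β they were 1885, 2087, 1738 and 1881 normalized CPM. The groups did not overlap, since the lowest IL-1β library was 1.44 times the highest vehicle library. Of the 564 miRNAs tested, 26 (4.61%) lay in the same way entirely above vehicle. The group means of the 5p arm were 1139 ± 81.0 (vehicle) and 1897 ± 143 (IL-1β) normalized CPM (SD over 4 libraries), a 1.67-fold ratio. The fitted log2 fold change was 0.74 (SE 0.0859). Without IL-1β replicate 4 it was 0.75 (SE 0.0730), and over 15 other settings it lay between 0.66 and 0.77.

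For miR-210-3p, the deposited counts were 645, 1133, 1183 and 423 with vehicle and 491, 892, 515 and 563 with IL-1β. The levels in vehicle replicates 1 to 4 were 684, 756, 738 and 659 normalized CPM. The IL-1β libraries, in the same order of replicates, held 786, 752, 753 and 706 normalized CPM. Only IL-1β replicate 1 was above every vehicle library, and the groups overlapped. The group means of the 3p arm were 709 ± 45.5 (vehicle) and 749 ± 32.8 (IL-1β) normalized CPM (SD over 4 libraries). The fitted log2 fold change was 0.07 (SE 0.0847), and 0.10 (SE 0.0732) without IL-1β replicate 4. Of the 2 arms, 1 was past the threshold of an adjusted p under 0.05 and an absolute log2 fold change over 0.3, beside 11 of all 564 miRNAs tested (1.95%). The arms were chosen on this contrast, so nothing is read from that count.

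**Figure D1:**
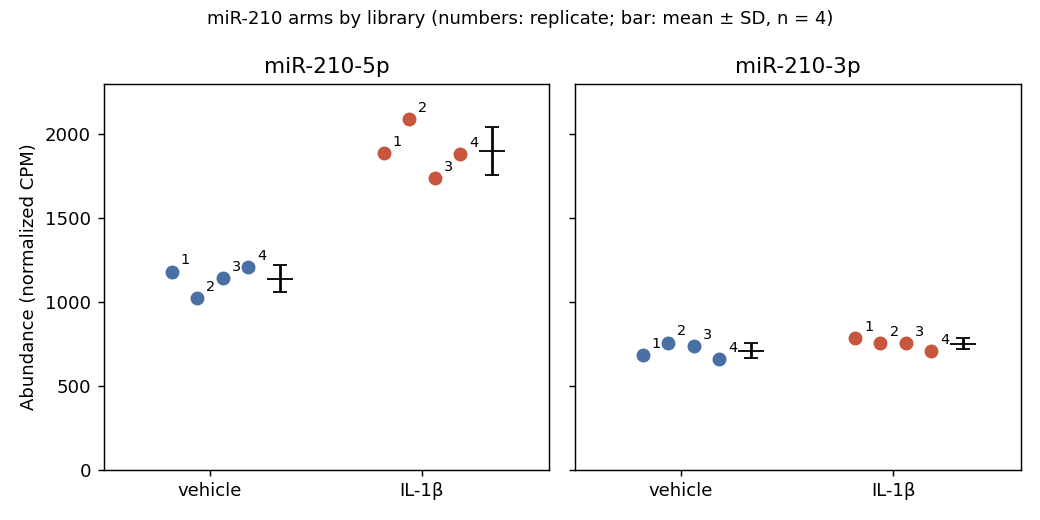
Normalized CPM (vertical axis, from 0) of miR-210-5p (left) and miR-210-3p (right) in each library, with the replicate number beside each point and the mean ± SD (n = 4) as a black bar. The 5p arm lay at 1024 to 1208 with vehicle and 1738 to 2087 with IL-1β, and the 3p arm at 659 to 756 and 706 to 786.

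A count of this size has a counting error of 2.01% to 3.59% for the 5p arm and 2.91% to 4.86% for the 3p arm, depending on the library. Between libraries of a group, the levels of the 5p arm had a coefficient of variation of 7.11% with vehicle and 7.56% with IL-1β. For the 3p arm these values were 6.41% and 4.38%. The spread of the 5p arm was above its counting error in both groups, whereas that of the 3p arm with IL-1β was about as large as its counting error (3.35% to 4.51% in those libraries). Summed over both arms, miR-210 took 1848 ± 45.7 (vehicle) and 2647 ± 148 (IL-1β) normalized CPM (SD over 4 libraries), a 1.43-fold ratio. The 5p arm made up 95.04% of the difference between these sums.

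The arm ratio was then examined within each library. Both arms were counted in the same library, so that library size and scaling cancel in their ratio. In vehicle replicates 1 to 4, the 5p arm took 63.3%, 57.5%, 60.7% and 64.7% of miR-210 counts. In IL-1β replicates 1 to 4, its share was 70.6%, 73.5%, 69.8% and 72.7%. Every IL-1β library was above every vehicle library, and the exact binomial 95% intervals of the nearest pair, 61.9% to 67.4% in vehicle replicate 4 and 67.5% to 71.95% in IL-1β replicate 3, did not overlap. These intervals cover counting error only, as no molecular identifiers were described. They also failed to overlap within a group, at 61.0% to 65.6% in vehicle replicate 1 and 55.6% to 59.4% in vehicle replicate 2. No conclusion on the treatment is drawn from them. The mean 5p share was 61.6% ± 3.16 (SD, n = 4) in the vehicle group and 71.6% ± 1.75 (SD, n = 4) in the IL-1β group.

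Expressed as counts of 5p per count of 3p, the ratio was 1.73, 1.35, 1.55 and 1.83 with vehicle and 2.399, 2.77, 2.31 and 2.66 with IL-1β. On the log2 scale it was 0.68 ± 0.192 and 1.34 ± 0.125 (SD, n = 4). The difference was 0.66 (SE 0.114), that is 1.58-fold, and it was 0.63 without IL-1β replicate 4. Within the vehicle group the 2 libraries with fewer counts had the higher 5p shares, and the part of depth in the arm ratio was not tested.

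**Figure D2:**
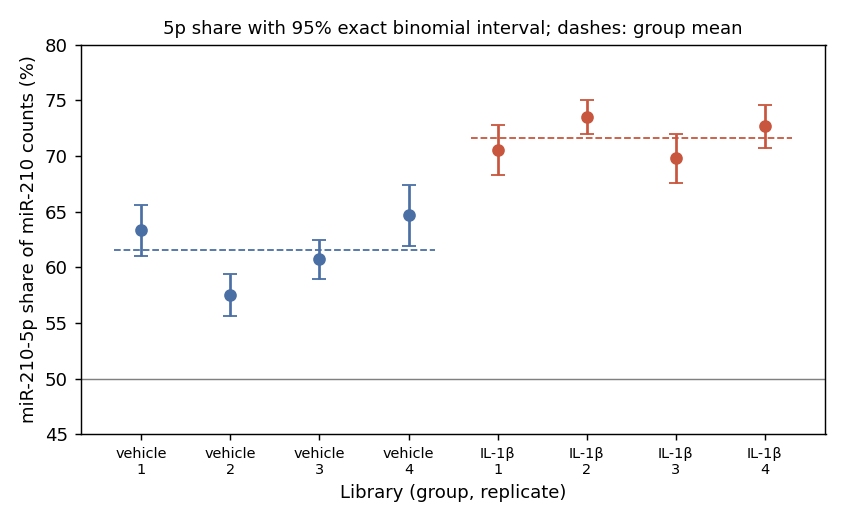
Share of miR-210 counts on the 5p arm (percent, vertical axis from 45 to 80) in each library, with its 95% exact binomial interval, the group means as dashed lines and equal arms (50%) as a grey line. The vehicle libraries lay between 57.5% and 64.7% and the IL-1β libraries between 69.8% and 73.5%.

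In unstimulated cells the 5p arm gave more counts than the 3p arm in 4 of 4 vehicle libraries, by 1.604-fold on average (mean log2 ratio 0.68 ± 0.192, SD, n = 4). The arm ratios of these libraries were among the values looked at when miR-210 was chosen, and 4 libraries are too few for an exact test to pass 0.05, so this order is given as a description. Ligation and amplification favor some sequences over others, and more counts of 5p are not proof of more 5p molecules. The part of such preferences in the arm ratio was not tested.

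To place this arm ratio, it was compared with that of other hairpins with 1 locus, both arms tested and a mature RefSeq sequence for both arms. Hairpins such as miR-140 and miR-222, whose 5p arms had no such sequence under their names, were left out. There were 122 hairpins, miR-210 included, of which 51 had a mean of at least 10 counts on each arm. In vehicle libraries, 24 of the 51 had more 5p counts and 27 had more 3p counts. The median hairpin had 9.46 times more counts on its major than on its minor arm (absolute log2 ratio 3.24). miR-210, at 0.68, was the 9th most balanced of the 51, and 10 had arms within 2-fold of each other. Of the 20 hairpins with at least 50 counts on each arm, 4 had arms within 2-fold of each other. Besides miR-210 these were let-7d (log2 ratio -0.16), miR-877 (0.45) and miR-30e (0.71), named after their values were seen. Their fitted changes of the ratio with IL-1β were 0.09 (SE 0.145), -0.69 (SE 0.185) and 0.37 (SE 0.233).

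**Figure D3:**
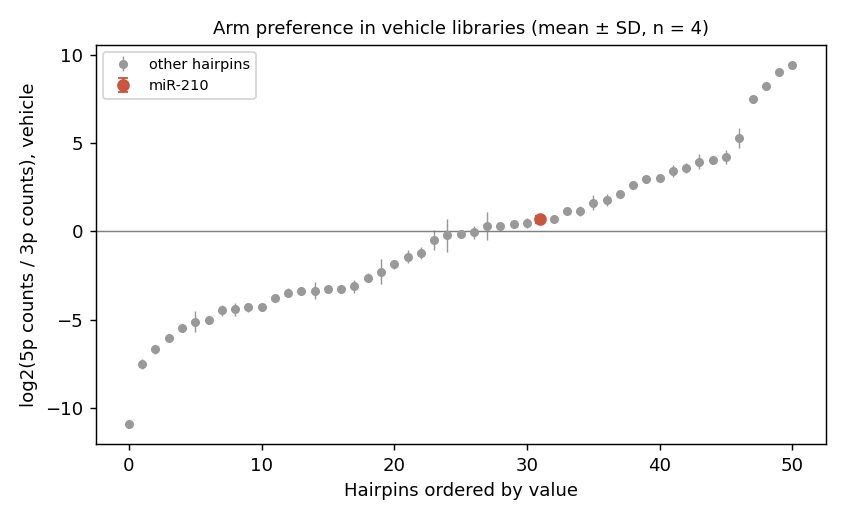
Mean log2 ratio of 5p to 3p counts in the vehicle libraries (vertical axis, ± SD, n = 4) for 51 hairpins with at least 10 mean counts on each arm, ordered by value. miR-210, at 0.68, lies close to equal arms (0), where most hairpins are far above or below.

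The change of the arm ratio with IL-1β was fitted for all hairpins in a model that compares the arms within each library. The fitted value for miR-210 was 0.67 (SE 0.150), a description here, and 0.65 without IL-1β replicate 4. In that fit 2 of 122 hairpins (1.64%) were past the threshold, miR-210 and miR-877, and nothing is read from the place of miR-210 among them, since it was chosen on these values. For miR-877, a mirtron excised by splicing, the 3p arm rose (log2 fold change 0.52, SE 0.112) and the 5p arm was at -0.16 (SE 0.106), a change of the ratio in the opposite direction (-0.69, SE 0.185, edgeR adjusted p = 0.0123). miR-877 no longer passed without vehicle replicate 3, vehicle replicate 4 or IL-1β replicate 1. With limma on the log2 ratios, no hairpin was past the threshold, either among all 122 or among the 51 with at least 10 counts on each arm, although 11 and 5 had an unadjusted p under 0.05. All 4 IL-1β libraries were above all 4 vehicle libraries in the arm ratio of 3 of the 122 hairpins (2.46%), miR-210 among them.

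Among the other 50 hairpins with at least 10 counts on each arm, the median change of the ratio was 0.04 with an SD of 0.29, and 38 lay within 0.3 of 0 in either direction. Their values ranged from -0.78 (miR-708) to 0.76 (miR-379). By absolute change miR-210 ranked 4th of the 51, and 31st of all 122, where the largest values came from scarce hairpins. The top 3 of all 122 were miR-7083 (2.44, SE 1.02), miR-376b (2.41, SE 1.15) and miR-362 (-2.10, SE 1.51), and each had an arm with a mean of at most 2 counts.

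**Figure D4:**
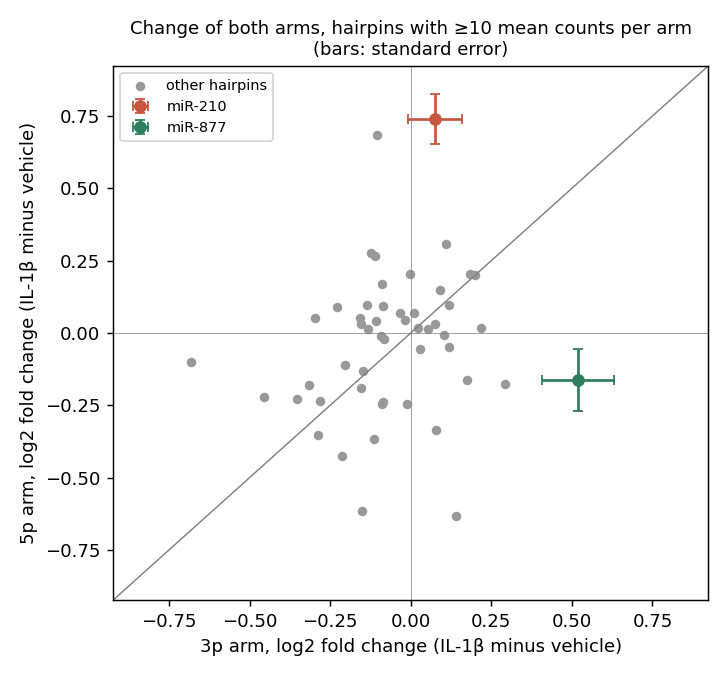
Log2 fold change (IL-1β minus vehicle) of the 5p arm (vertical axis) against that of the 3p arm (horizontal axis) for 51 hairpins, with the standard errors for miR-210 and miR-877 and the line of equal change. miR-210 lies above the line at 0.74 and 0.07, and miR-877 below it at -0.16 and 0.52.

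Apart from miR-210-5p, 10 miRNAs passed the test between the groups, and 4 of them (miR-21a-5p, miR-540-3p, miR-708-5p and miR-877-3p) belonged to the 122 hairpins compared. miR-222-3p rose by 0.62 on the log2 scale (SE 0.0842, edgeR adjusted p = 2.44e-05), and miR-222-5p, at 7.93 and 14.7 normalized CPM, had a log2 fold change of 1.02 (SE 0.360). miR-21a-5p rose by 0.75 (SE 0.105), and miR-21a-3p, with a mean of 4 counts, was at 1.22 (SE 0.635). miR-708-5p fell by 0.63 on the log2 scale (SE 0.145, edgeR adjusted p = 0.0172), and miR-708-3p was at 0.14 (SE 0.236). The arm ratio of miR-708 thus had a larger absolute change than that of miR-210, in the opposite direction (-0.78, SE 0.312), on means of 76.9 and 21.2 counts, and it did not pass the test (edgeR adjusted p = 0.411). miR-540-3p fell by 0.46 on the log2 scale (SE 0.0911, edgeR adjusted p = 0.00473), and miR-540-5p was at -0.22 (SE 0.269). The difference in arm change between these hairpins and miR-210 was not tested. miR-365-2-5p (0.68, SE 0.160) and miR-129-2-3p (0.79, SE 0.106) also rose, but their opposite arms are each shared by a second locus, so that no arm ratio was formed. The other 3 miRNAs called, miR-1249-3p (0.40, SE 0.102), miR-6944-3p (0.55, SE 0.137) and miR-381-3p (-0.37, SE 0.0931), were not among the 122 hairpins compared. Over the 15 other settings miR-222-3p, miR-21a-5p, miR-129-2-3p and miR-540-3p passed the test in each. The remaining 6 calls were less stable, and each was lost when any 1 of the libraries in parentheses was left out. They were miR-708-5p (vehicle 2, IL-1β 1), miR-877-3p (vehicle 2, vehicle 4), miR-365-2-5p (vehicle 3, vehicle 4, IL-1β 3), miR-381-3p (vehicle 1, 3 and 4, IL-1β 1 and 3), miR-6944-3p (vehicle 2 and 4, IL-1β 1, 2 and 3) and miR-1249-3p (vehicle 2, 3 and 4, IL-1β 1, 2 and 3). The calls of miR-6944-3p and miR-1249-3p were also lost with library totals alone as scaling.

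By level, miR-210-5p ranked 53rd of 564 tested miRNAs with vehicle and 44th with IL-1β, and miR-210-3p ranked 76th and 77th. A read of a mature miRNA covers the whole molecule, so counts were not divided by length. The levels next to miR-210-5p, over all 8 libraries, were those of miR-214-3p (mean 1650 normalized CPM), let-7d-5p (1806) and miR-410-3p (1881) above it, and of miR-709 (1509), miR-484 (1476) and miR-151-5p (1443) below it. For miR-210-3p they were miR-322-3p (758), miR-6239 (765) and miR-196a-5p (766) above and miR-182-5p (681), miR-615-3p (678) and miR-668-3p (672) below. The range over libraries of each of these 12 overlapped that of the arm it stood beside.

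The pattern over the 8 libraries was compared with that of the 194 other miRNAs averaging 50 counts or more, by Pearson correlation of log2(normalized CPM + 1). The libraries share their depth and scaling, and the groups differ, so these values are descriptive. Most like miR-210-5p were miR-671-3p (r = 0.94), miR-222-3p (0.94) and miR-129-2-3p (0.93). The highest of these, miR-671-3p, did not itself pass the test (log2 fold change 0.25, SE 0.0815, edgeR adjusted p = 0.124). The 3p arm of miR-210 ranked 50th, at 0.38. Most like miR-210-3p were miR-1843b-3p (0.76), miR-7688-5p (0.75) and miR-5099 (0.69). After the group means were subtracted, the order changed. miR-423-3p (0.86), miR-136-3p (0.81) and miR-8112 (0.80) were then most like the 5p arm, and miR-127-5p (0.89), miR-337-5p (0.82) and miR-148a-3p (0.78) most like the 3p arm. The arms of miR-210 were at -0.50 to each other.

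Because miR-210 is known from hypoxia, other miRNAs linked to low oxygen were examined in the same fit. The list held 17 miRNAs described as raised in hypoxic cells and 4 described as lowered, a set that differs between cell types. Of the 21, 20 were tested, 1 rose and 19 did not pass the test, beside 11 calls among all 564 miRNAs (1.95%). The median log2 fold change was -0.01 over the 20 and 0.01 over all 564 tested miRNAs, with 9 values above and 11 below 0. All 15 other settings also gave 1 call on this list.

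The member that rose was miR-21a-5p, a widely expressed miRNA raised by inflammation and growth signals as well as by hypoxia. In vehicle replicates 1 to 4 it was at 359, 387, 343 and 330.3 normalized CPM. The IL-1β replicates 1 to 4 held 634, 584, 475 and 695 normalized CPM, all above vehicle. The log2 fold change was 0.75 (SE 0.105, edgeR adjusted p = 3.58e-05), and 0.67 (SE 0.0914) without IL-1β replicate 4. The most abundant members were miR-181a-5p, miR-125b-5p and miR-26a-5p. In normalized CPM (mean ± SD over 4 libraries, vehicle then IL-1β), they stood at 89435 ± 2274 and 92163 ± 7592, at 35976 ± 2303 and 44172 ± 9793, and at 10133 ± 238 and 10024 ± 1397. Their log2 fold changes were 0.04, 0.30 and -0.02, and none passed the test. Without IL-1β replicate 4 they were -0.01, 0.13 and -0.11, so that the value of miR-125b-5p was lower by over 1.5 times and that of miR-181a-5p changed sign. Of the 20 tested members 7, these 3 included, come from 2 loci each, and their reads may stem from either gene. The largest value on the list, 0.88 for miR-195a-5p, had an SE of 0.42 (0.80 without IL-1β replicate 4), at mean levels of 5.47 ± 3.59 (vehicle) and 11.0 ± 4.63 (IL-1β) normalized CPM (SD over 4 libraries). The 3 tested members described as lowered in hypoxia were miR-199a-5p (0.05), miR-17-5p (0.04) and miR-20a-5p (-0.42, SE 0.336), and without IL-1β replicate 4 they were at 0.01, 0.11 and -0.38.

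**Figure D5:**
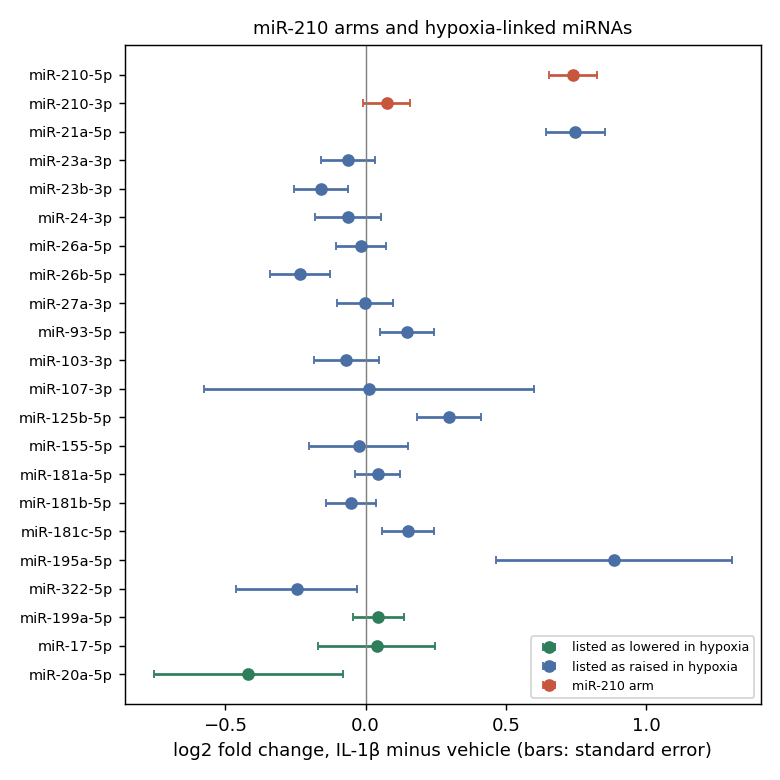
Log2 fold change (IL-1β minus vehicle, horizontal axis, bars for the standard error) of both miR-210 arms (red) and of 20 hypoxia-linked miRNAs, in blue for those described as raised and in green for those described as lowered in hypoxia. miR-210-5p (0.74) and miR-21a-5p (0.75) lie side by side, and most other values lie near 0.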

How the data were processed

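miRNA sequencing covered total RNA of 8 samples, which the labels divide into vehicle and IL-1β with replicates 1 to 4. The authors deposited whole-number read counts per mature miRNA. Per the labels and the methods, reads were trimmed with cutadapt, aligned to mm10 with STAR (2.4.2a in the submitters' processing notes) and counted with featureCounts. The methods also describe a batch correction, and whether the deposited counts were taken before or after it is not given in the sources used here. They were tested as read counts, and if they were corrected, the intervals for counting error would not hold exactly. Strand use and the treatment of reads with several matches are not given in the sources used here. The deposited length column was used as a check only. All 8 count columns matched a sample by name.

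Counts were tested with edgeR 4.0.16 in R 4.3.3 (quasi-likelihood, robust, TMM scaling) for the 564 of 1966 miRNAs over 1 CPM (count per 1000000) in at least 4 libraries, with p-values adjusted by the Benjamini-Hochberg method. A miRNA was called at an adjusted p under 0.05 and an absolute log2 fold change over 0.3. The study's methods name DESeq2, run here as an alternative (1.42.0), as was limma (3.58.1) for the arm ratio. Arm ratios of hairpins were fitted in edgeR with library as a block, arm, and arm by treatment, and log2 arm ratios in the hairpin comparison had 0.5 added to each count. Standard errors of edgeR values are the absolute log2 value divided by the square root of F. The standard error of the difference in mean log2 arm ratio of miR-210 came from the variances over the libraries of each group. Nothing says that the replicates came from separate animals, so p-values measure only the spread between these libraries. A single count was worth 0.638 to 1.62 CPM. The main edgeR fits of levels and of arm ratios were also run on simulated counts, and the other steps and alternatives were not. Structures were predicted with ViennaRNA 2.7.2. RefSeq sequences matched 1675 of the 1966 names.

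The members and lists were chosen with earlier results of these data known. Named were both arms, members of the hypoxia list that passed the test and its 3 most abundant, the 3 miRNAs most alike in pattern and nearest in level, the hairpins miR-222, miR-21a, miR-365-2 and miR-129-2 with a called arm, the 3 largest arm changes, and cell type markers. The other miRNAs with a call were named after their values were seen, as were miR-379, let-7d, miR-30e and the remaining members of the hypoxia list.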

Additional observations from a re-analysis of the deposited data

Results flagged for a closer look

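In 62 groups of 4 libraries examined, 4 held a library whose gap to its nearest neighbor, as a share of the group's range, was above Dixon's 95% critical value. Chance alone gives about 1 in 20 groups, or 3.1 of 62. The arms of miR-210 summed were lowest in vehicle replicate 2, with 1780 normalized CPM, whereas the other 3 libraries of that group had 1865 to 1880 (gap 0.842 of the range). The 3 further cases all fell on IL-1β replicate 4, the library that stood apart as a whole. miR-23a-3p was at 957 against 711 to 747 (gap 0.853), miR-24-3p at 182 against 136 to 142 (gap 0.874), and miR-125b-5p at 58697 against 37488 to 41070 (gap 0.831). None of these 3 miRNAs passed the test between the groups.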

How the results depend on the processing

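The log2 fold changes of both miR-210 arms, a description of the values they were chosen on, were above 0 in all 15 alternatives (other scaling, other filters, DESeq2, a factor of unwanted variation, the replicate block and each library left out). They ranged from 0.66 to 0.77 for the 5p arm and from 0.01 to 0.11 for the 3p arm, and the lowest 5p value came without IL-1β replicate 2. The log2 arm ratio difference ranged from 0.58 (without vehicle replicate 2) to 0.73 (counts summed over a group).

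The number of all miRNAs called was 20 with the replicate block, 28 with a factor of unwanted variation, and 6 to 19 with 1 library left out, against 11. It was 6 without vehicle replicate 4, 7 without vehicle replicate 2 or IL-1β replicate 3, and 19 without IL-1β replicate 4. The number of hairpins called was 0 with limma, with limma on arms of at least 10 counts (chosen after seeing the data) and with limma and the replicate block, with 11, 5 and 11 at an unadjusted p under 0.05. It was 1 to 2 with 1 library left out, and 1 without vehicle replicate 3, vehicle replicate 4 or IL-1β replicate 1. In the 3 limma fits the value for miR-210 was 0.66. The causes were not tested.

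Deviations of same-numbered libraries correlated at 0.171, -0.345, 0.101 and -0.183 over 195 miRNAs, so the numbers were not taken as pairs. With the replicate block miR-210-5p was at 0.74 and miR-210-3p at 0.08.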

Other observations

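Within the vehicle group the arms of miR-210 ran in opposite order. Ranked from highest to lowest, miR-210-5p was found in replicates 4, 1, 3 and 2, and miR-210-3p in replicates 2, 3, 1 and 4. The sum of the arms varied less (coefficient of variation 2.47%) than either arm (7.11% and 6.41%). With IL-1β no such reversal was seen, and the sum varied by 5.58%.

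The vehicle libraries with a higher 5p share were also the shallower ones. The share was 64.7% at 633625 counts, 63.3% at 930139, 57.5% at 1514240 and 60.7% at 1568367. With IL-1β the deepest library, replicate 2 at 1145577 counts, had the highest share, 73.5%, and the shallowest, replicate 1 at 616475, had 70.6%. The part of depth in the share was not tested.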
